A study of Rattus norvegicus with 17 samples.

Results

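The genes described here were expressed in control rat lung, fell to less than 50% of control on average with bleomycin, and had a mean in lungs given bleomycin and BI1015550 that lay close to control. They were chosen by a rule on group means of CPM (a gene's count divided by the total count of its library and multiplied by 1000000). The control mean had to be at least 5 CPM, the log2 ratio of bleomycin to control at most -1, and the log2 ratio of treated to control between -0.25 and 0.25, with 0.5 CPM added to each mean. Of 32753 genes in the table, 79 met the rule. All 3 group means were used to choose these genes, so the differences between groups given below describe the choice and are not tested.

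Lung parenchyma was taken from rats of the Wistar stock RjHan:WI, and RNA was sequenced in 17 libraries. The 6 control libraries (numbered 1 to 6) came from rats given NaCl. The 5 bleomycin libraries (7, 8, 9, 11 and 12) came from rats given bleomycin at 1 mg per kg, and the 6 treated libraries (13 to 18) from rats given the same dose of bleomycin and BI1015550 at 2.5 mg per kg. The labels give no time point, route, age, sex or batch, and nothing in them ties a library to 1 animal of its own, so the spread between libraries may be technical in part. Total counts ranged from 14609389 to 18462105 per library. The library numbers run on from control to bleomycin to treated, so an effect that follows this order cannot be told apart from group.

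Bleomycin is a DNA-damaging antibiotic that injures the alveolar epithelium and capillary endothelium of rodent lung, after which inflammation and scarring follow. Genes that fall in such lungs usually include those of the gas-exchange epithelium, the endothelium and the airway lining. BI1015550 inhibits PDE4B, going by the title of the series. PDE4B is an enzyme that degrades cyclic AMP and so dampens the signals that this messenger carries in leukocytes and fibroblasts. In RNA from whole lung, fewer cells of a type and less RNA per cell cannot be told apart. The table names its genes by Ensembl ID only, and none of these IDs could be matched to a gene symbol (0 of 32753), so the functions of the 79 genes are not given. For the same reason the cell types of the tissue could not be checked against their markers, and no promoter could be assigned to a gene.

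Few of the genes that fell with bleomycin met the last condition. Among the 11693 genes with a control mean of at least 5 CPM, 402 had a log2 ratio of bleomycin to control of -1 or lower. The treated mean of 306 of them (76.1%) stayed below the window around control, that of 79 (19.7%) lay inside it, and that of 17 (4.23%) lay above it. The 79 genes therefore sit in the upper part of a continuous spread of treated values and have no gap around them. The log2 ratios of treated to control just inside the lower edge were -0.248, -0.242 and -0.241, and those just outside it were -0.255, -0.259 and -0.261. At the upper edge the values inside were 0.243, 0.174 and 0.143, and those outside were 0.268, 0.290 and 0.296.

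**Figure D1:**
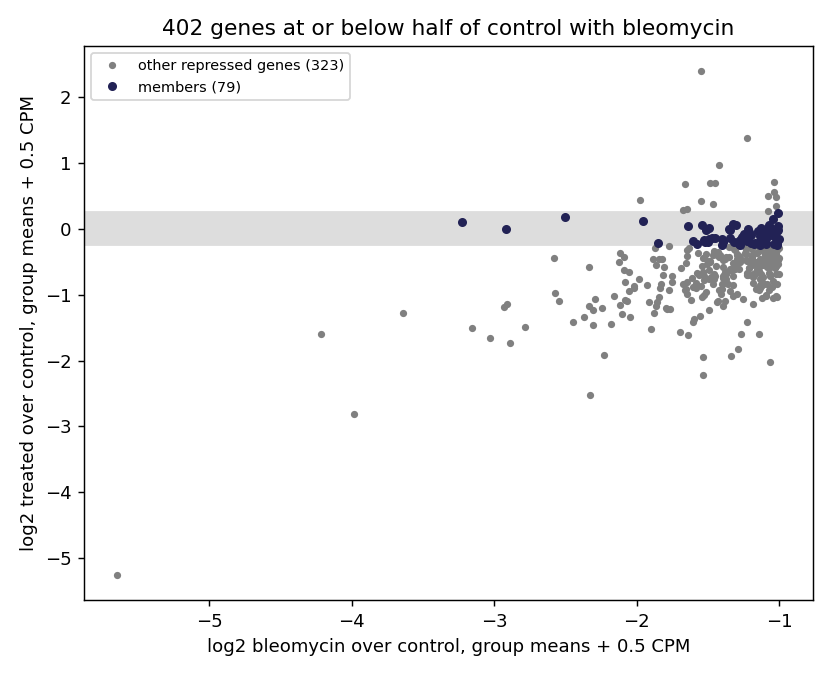
Each point is 1 of the 402 genes at or below a log2 bleomycin to control ratio of -1, with that ratio on the x axis and the log2 treated to control ratio on the y axis, both from group means plus 0.5 CPM. The grey band is the window from -0.25 to 0.25, and the 79 dark points inside it lie among 306 grey points below and 17 above.

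The other edges of the rule were as close. The smallest control means inside the rule were 5.12, 5.77 and 5.85 CPM, against 4.98, 4.91 and 4.78 CPM for the nearest genes left out. The log2 bleomycin to control ratios nearest the threshold were -1.005, -1.010 and -1.012 inside and -0.997, -0.990 and -0.989 outside. Inside the window the 79 genes lay mostly on the low side: the treated mean was below control for 62 of them and above it for 17, with a median log2 ratio of -0.12.

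The 79 genes covered a wide range of expression. Control means ran from 5.12 to 5194 CPM with a median of 42.0 CPM, close to the median of 36.7 CPM over all 11693 genes that passed the same minimum. There were 12 genes under 10 CPM, 39 from 10 to 100 CPM, 25 from 100 CPM up to 10 times that level, and 3 higher still. Most had fallen by little more than the threshold. The log2 bleomycin to control ratio lay between -1 and -1.5 for 67 genes, between -1.5 and -2 for 9 and below -2 for 3, with a median of -1.20. The median was -1.33 for the 323 repressed genes outside the window. In control libraries the 79 genes together held 1.82% ± 0.115 of all counts (SD, n = 6, 1.67% to 1.95%). Their share was 0.778% ± 0.2 in the bleomycin libraries (SD, n = 5, range 0.56% to 1.03%). In the treated libraries it was 1.67% ± 0.358 (SD, n = 6, range 1.2% to 2.15%).

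The lowest ratio belonged to ENSRNOG00000032871, one of the less abundant of the 79 genes. Control libraries lay between 3.23 and 10.9 CPM (median 6.76 CPM). The bleomycin libraries had 0.502, 0.185, 0.263, 0.312 and 0.316 CPM in the order of their numbers, from 3 to 8 counts each. All bleomycin libraries were thus below all controls, at a depth where single counts matter. The treated libraries had 21.1, 7.48, 3.56, 0.846, 11.2 and 2.14 CPM for libraries 13 to 18. Libraries 13 and 17 lay above the whole control range, libraries 14 and 15 inside it, and libraries 16 and 18 below it. The treated mean was 7.72 ± 7.56 CPM (SD, n = 6) and the control mean 7.11 ± 2.94 CPM (SD, n = 6), so that a mean near control came with a 24.9-fold range between treated libraries.

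ENSRNOG00000003510, next in that order, showed the same arrangement at a level where counting error is small. Its controls lay between 512 and 947 CPM (median 576 CPM). The bleomycin libraries had 65.3, 149, 75.6, 99.3 and 31.6 CPM, all below every control. The treated libraries had 1482, 485, 320, 276, 1002 and 270 CPM for libraries 13 to 18. All 6 were above every bleomycin library, yet libraries 13 and 17 exceeded every control and the other 4 lay below every control. The means of treated (639 ± 497 CPM, SD, n = 6) and control (638 ± 161 CPM, SD, n = 6) were almost the same, while no treated library was within the control range. This gene and ENSRNOG00000011154 were named after their values were seen, as the second in each of the orders by ratio and by control level.

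The next gene by ratio also had libraries 13 and 17 above the rest. Libraries 13 and 17 had 138 and 67.3 CPM, the other 4 between 12.3 and 22.8 CPM, and the controls between 26.7 and 52.7 CPM. The one after it differed: its highest treated library was 18, at 126 CPM, with the other 5 between 29.3 and 56 CPM and controls between 36.8 and 75.9 CPM. Among the 10 genes with the lowest ratio, library 13 was the highest treated library for 7, and the treated coefficient of variation (SD divided by the mean) had a median of 52% against 28.1% in controls. All 10 had every bleomycin library below every control, where 10.4% of the 15000 genes in the fit described below did so. For 7 of them every treated library was above every bleomycin library, against 8.15% of those 15000. The 10 were ranked on the ratio itself, so nothing is read from these counts.

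The most abundant of the 79 genes, ENSRNOG00000021318, held 28.6% of their summed control CPM. Controls lay between 4729 and 5680 CPM with a coefficient of variation of 5.86%. The bleomycin libraries had 1732, 3155, 2204, 3092 and 1611 CPM, with a mean of 2359 ± 733 CPM (SD, n = 5) against 5194 ± 305 CPM in controls (SD, n = 6). The treated libraries had 4959, 4426, 2977, 3539, 5509 and 4835 CPM. Libraries 13, 17 and 18 lay inside the control range and libraries 14, 15 and 16 below it. Library 15, at 2977 CPM, was also below bleomycin libraries 8 and 11. This gene met the rule narrowly, with a log2 treated to control ratio of -0.25.

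ENSRNOG00000011154 was the second most abundant. Its controls fell into a low pair, libraries 1 and 4 at 2121 and 2171 CPM, and 4 libraries from 2699 to 2903 CPM. The bleomycin libraries had 1143, 1707, 990, 1416 and 999 CPM. The treated libraries had 3347, 2157, 1836, 2199, 3029 and 2575 CPM, so that libraries 13 and 17 were above every control, library 15 was below every control, and all were above every bleomycin library. The 10 genes with the highest control level held 72.3% of the summed control CPM of the 79. Of these 10, 9 had all bleomycin libraries below all controls (10.4% of the 15000 genes in the fit). All treated libraries lay above all bleomycin libraries for 6 (8.15% of the 15000). Nothing is read from these counts, since the rule used the group means.

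**Figure D2:**
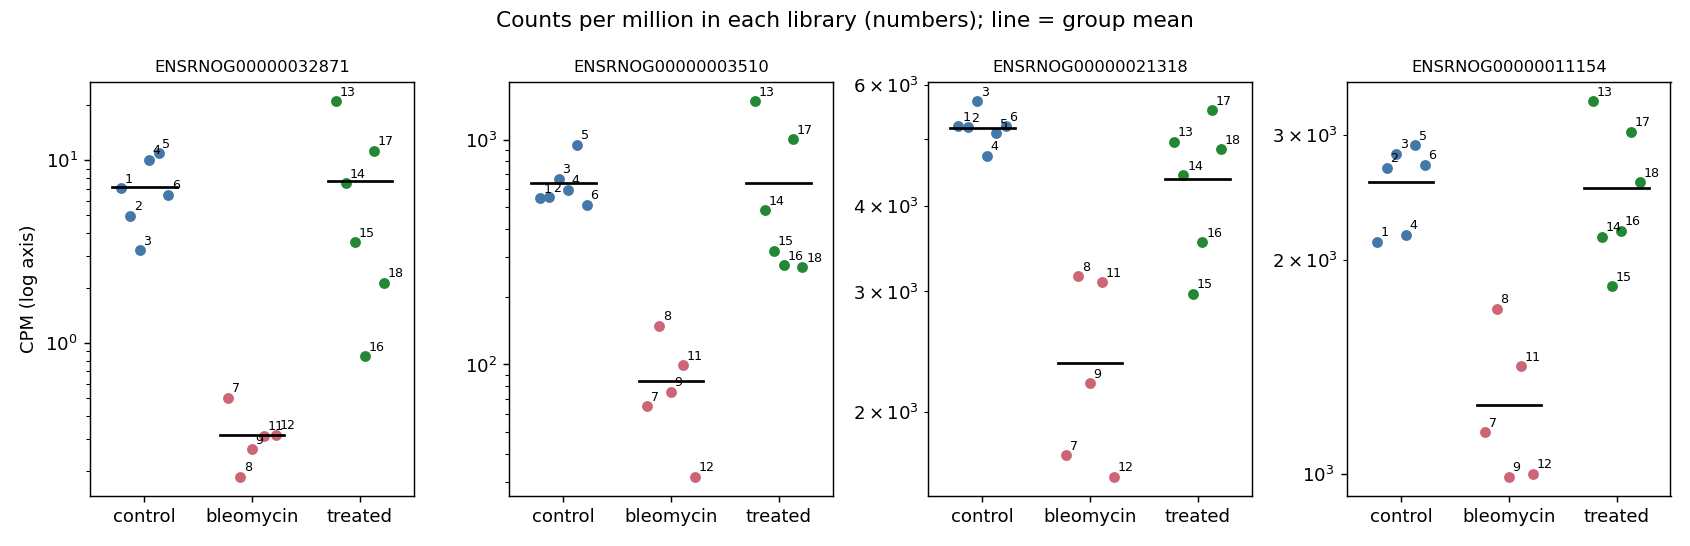
Each panel shows 1 gene, with CPM on a log y axis, a point per library labelled with its number, and a line at the group mean, for control, bleomycin and treated lungs. Treated libraries 13 and 17 lie above every control for ENSRNOG00000032871, ENSRNOG00000003510 and ENSRNOG00000011154, but not for ENSRNOG00000021318.

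A quasi-likelihood model (edgeR) was fitted to all 15000 genes with enough counts, and all 79 genes were among them. With bleomycin against control, 77 of the 79 were lower at an adjusted p below 0.05, where 18% of all genes tested were called lower and 20.2% higher. For treated against bleomycin, 75 were called higher, against 12.1% of all genes tested. For treated against control none of the 79 was called (8.39% of all genes tested, 4.47% lower and 3.92% higher), and the median SE of their log2 fold change was 0.221. All 3 comparisons were used by the rule, so nothing is read from these counts. The first 2 comparisons also share the bleomycin libraries. The median log2 fold changes of the 79 genes were -1.16, 1.10 and -0.11 in these 3 comparisons, and those of all genes tested were -0.0072, -0.0032 and 0.0041. The 2 genes not called with bleomycin were also among the 4 not called in treated against bleomycin. These 4 had an SE of 0.385 to 0.486 for the latter log2 difference, where the median of the 79 was 0.242.

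Ranges of single libraries gave a less uniform picture than the means. All bleomycin libraries lay below all controls for 61 of the 79 genes, where 10.4% of all genes tested did so. All treated libraries lay above all bleomycin libraries for 50 (8.15% of all genes tested), and both held for 40 (3.48%). The treated libraries stayed wholly inside the control range for 21 genes, a share close to that of all genes tested (21.9%). For 38 genes they passed the control range at both ends, against 13.7% of all genes tested. For 25 genes the median of the treated libraries, set against the median of the controls, lay outside the window that the means had met. All 3 group means were used by the rule, so nothing is read from the differences between these counts and the shares of all genes.

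Treated libraries differed from each other in how close the 79 genes came to control. The median log2 difference from the control mean was 0.18 in library 13 and -0.0015 in library 17. It was -0.20 in library 18, -0.25 in library 14, -0.29 in library 16 and -0.39 in library 15. Single control libraries lay between -0.17 and 0.15, and bleomycin libraries between -1.52 and -0.94. Libraries 13 and 17 therefore lay at or above control, and libraries 14, 15, 16 and 18 lay below the lowest control while staying far above the highest bleomycin library. The 79 genes were within the range of the 6 controls in 49, 43, 42, 46, 60 and 55 cases for libraries 13 to 18. In library 13, 28 genes were above that range and 2 below it. In library 15, 36 were below it and 1 above. The same counts per library were not made over all genes, so nothing is read from them.

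Library 13 was the highest of the 6 treated libraries for 40 of the 79 genes and the lowest for 1, while among all 11693 genes of at least 5 CPM it was the highest for 15.2% and the lowest for 23.7%. Library 15 was the lowest for 29 and the highest for 6, against 10.2% and 21.7% of all these genes. The total count of library 15, 14609389, was the lowest of the 17 libraries, and that of library 13 was 14916067. The part of depth in these counts was not tested. The rule used the treated mean, which 1 high library can move into the window, so these counts are part of the description of the choice.

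In the treated libraries, the 323 other repressed genes followed the order of the 79 only in part. Libraries 17 (-0.62), 18 (-0.64), 14 (-0.72) and 15 (-0.74) kept their order, with 15 the lowest in both sets, while 13 and 16 did not. Their median log2 difference from control lay between -0.74 and -0.56, with library 16 the closest to control (-0.56) and library 13 at -0.66. The SD of this median over treated libraries was 0.0652 (n = 6), and 0.21 for the 79 genes. In the bleomycin libraries the SD was 0.279 for the other repressed genes and 0.23 for the 79 (n = 5). There the order was nearly the same in both sets: the other repressed genes were highest in libraries 8 (-1.15) and 11 (-1.17), then 9 (-1.37), and lowest in 12 (-1.56) and 7 (-1.82). No test was made of the difference in the treated libraries, since the treated mean separates the sets by construction.

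Genes raised at least 2-fold with bleomycin (261 genes, on the same scale) were ordered the other way. Their median log2 difference from control in treated lungs was lowest in library 13 (0.34), then 17 (0.48), 18 (0.50), 14 (0.57), 16 (0.57) and 15 (0.96). This is the exact reverse of the order of the 79 genes over the 6 treated libraries. In the bleomycin group the 79 genes were highest in libraries 8 (-0.94) and 11 (-1.24) and lowest in 7 (-1.48) and 12 (-1.52), and the raised genes were lowest in 11 (0.98) and 8 (1.03) and highest in 12 (1.48) and 7 (1.65). Both sets are shares of the same library totals. The raised genes were chosen on the control and bleomycin means, and the 79 genes on the means of all 3 groups. The order of the 79 genes over the treated libraries is therefore not independent of their choice. Without library 13, 27 of the 79 did not meet the rule, and without control library 5, 26 did not.

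**Figure D3:**
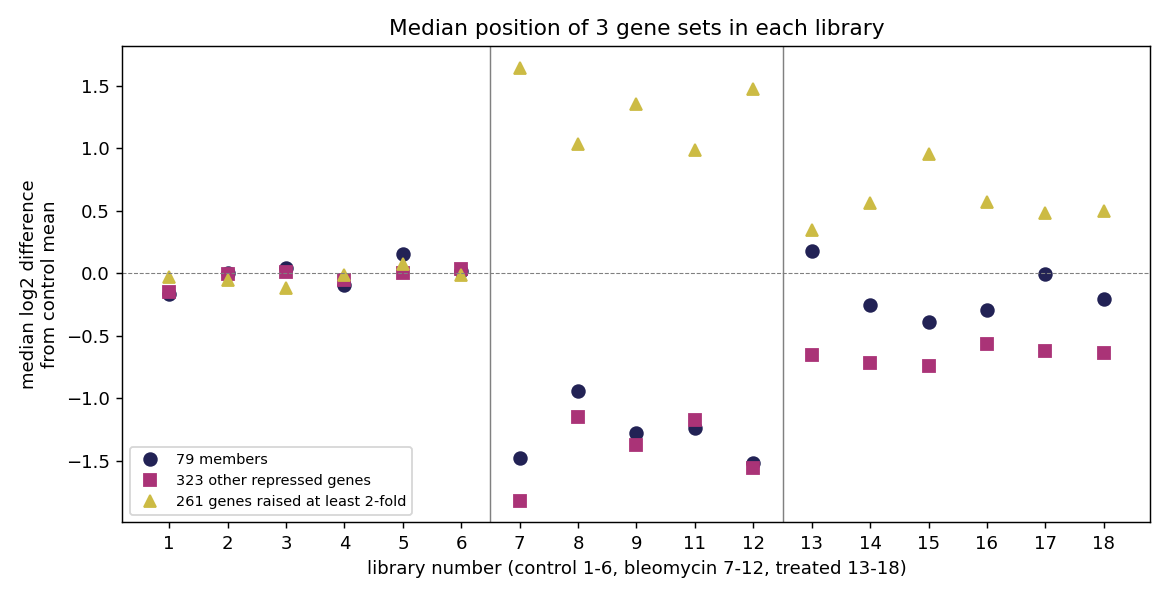
For each of the 17 libraries on the x axis, the y axis gives the median log2 difference from the control mean over the 79 genes (circles), the 323 other repressed genes (squares) and 261 genes raised at least 2-fold (triangles). In treated libraries 13 to 18 the circles spread from -0.39 to 0.18 while the squares stay between -0.74 and -0.56.

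The spread between libraries of a group was larger for the 79 genes than for most genes. The median SD of log2(CPM + 0.5) was 0.316 in controls, 0.405 with bleomycin and 0.369 in treated lungs, against 0.182, 0.207 and 0.156 over all genes of at least 5 CPM. The other repressed genes had 0.306, 0.446 and 0.362, and the raised genes 0.274, 0.443 and 0.374, so a large spread was common to genes that moved with bleomycin. The SD was larger in treated than in control libraries for 53 of the 79 genes (67.1%), against 42.5% of all genes of at least 5 CPM, 60.7% of the other repressed genes and 66.3% of the raised genes.

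To see which of the 79 genes moved together among libraries of one group, the group mean was taken from each gene's log2(CPM + 0.5) and the deviations were correlated over the 17 libraries. The median correlation over 3081 pairs of these genes was 0.239, with 23.8% of pairs above 0.5 and 24.7% below 0. Over all pairs of genes of at least 5 CPM the median was 0.023, with 11.4% above 0.5. All pairs share the same libraries and totals, and no test was made. The 79 genes were thus not 1 block: 45 of them correlated above 0.5 with their own mean deviation, and the lowest value was -0.083. The 5 genes outside the set that were closest to this mean deviation had correlations from 0.919 to 0.938. Each of the 5 was lower with bleomycin, by log2 ratios from -0.93 to -0.64 that missed the threshold of the rule, and had a treated to control ratio between -0.09 and 0.18.

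Average-linkage clustering of these deviations, with a limit of 0.6 on 1 minus the correlation, gave 9 sets, of which the 5 largest held 72 of the 79 genes. The first, with 19 genes and a median correlation of 0.676 between them, was set apart by the controls. Its median log2 difference from the control mean was -0.64 in control library 1 and -0.50 in control library 4, and between 0.10 and 0.38 in the other 4. Its treated libraries were close together, from -0.33 to 0.20. In 18 of its 19 genes every treated library was above every bleomycin library (50 of the 79, and 8.15% of all genes tested). ENSRNOG00000011154 belongs to it. With controls 1 and 4 low, 9 of the 19 had every bleomycin library below every control (61 of the 79, and 10.4% of all genes tested). Nothing is read from these counts, since the rule used the group means.

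The second set, also of 19 genes (median correlation 0.658), was set apart by the treated libraries. Its medians were 0.65 in library 13 and 0.33 in library 17, then -0.24, -0.54, -0.70 and -0.64 in libraries 14, 15, 16 and 18. Controls stayed between -0.22 and 0.16, and the bleomycin libraries lay between -1.70 and -1.19. ENSRNOG00000032871, ENSRNOG00000003510 and the gene after them in the order by ratio are all in this set. Library 13 was the highest treated library for 16 of the 19, and also for 15 of the 19 genes of the first set. On the set medians, 2 treated libraries thus lay above control and 4 below it, while single genes of the set differed from this.

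The third set, of 16 genes (median correlation 0.7), held abundant genes, with a median control mean of 166 CPM and ENSRNOG00000021318 among them. Among the 5 largest sets it was the one in which the medians of the bleomycin libraries were widest apart. Its medians were -1.75 and -1.92 in libraries 7 and 12, and -0.83 and -0.80 in libraries 8 and 11. Among treated libraries 15 stood lowest at -0.72 and 14 next at -0.30, with the other 4 between -0.16 and 0.06. All 16 genes had every bleomycin library below every control, and the median coefficient of variation in controls was 13.4%. For 7 of the 16, every treated library was above every bleomycin library.

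In the fourth set, of 11 genes, bleomycin library 12 had fallen least, at -0.68 against -1.13 to -1.68 in the other 4, and control library 1 was low at -0.50. Its treated libraries lay between -0.38 and 0.15, with library 15 the highest. Library 15 was the lowest treated library in the first set and the third set, so its position depended on the genes. The fifth set, of 7 genes, had treated libraries 13 and 14 high, at 0.37 and 0.49, and library 16 low at -0.91. Controls varied as well, from -0.71 in library 2 to 0.44 in library 5.

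**Figure D4:**
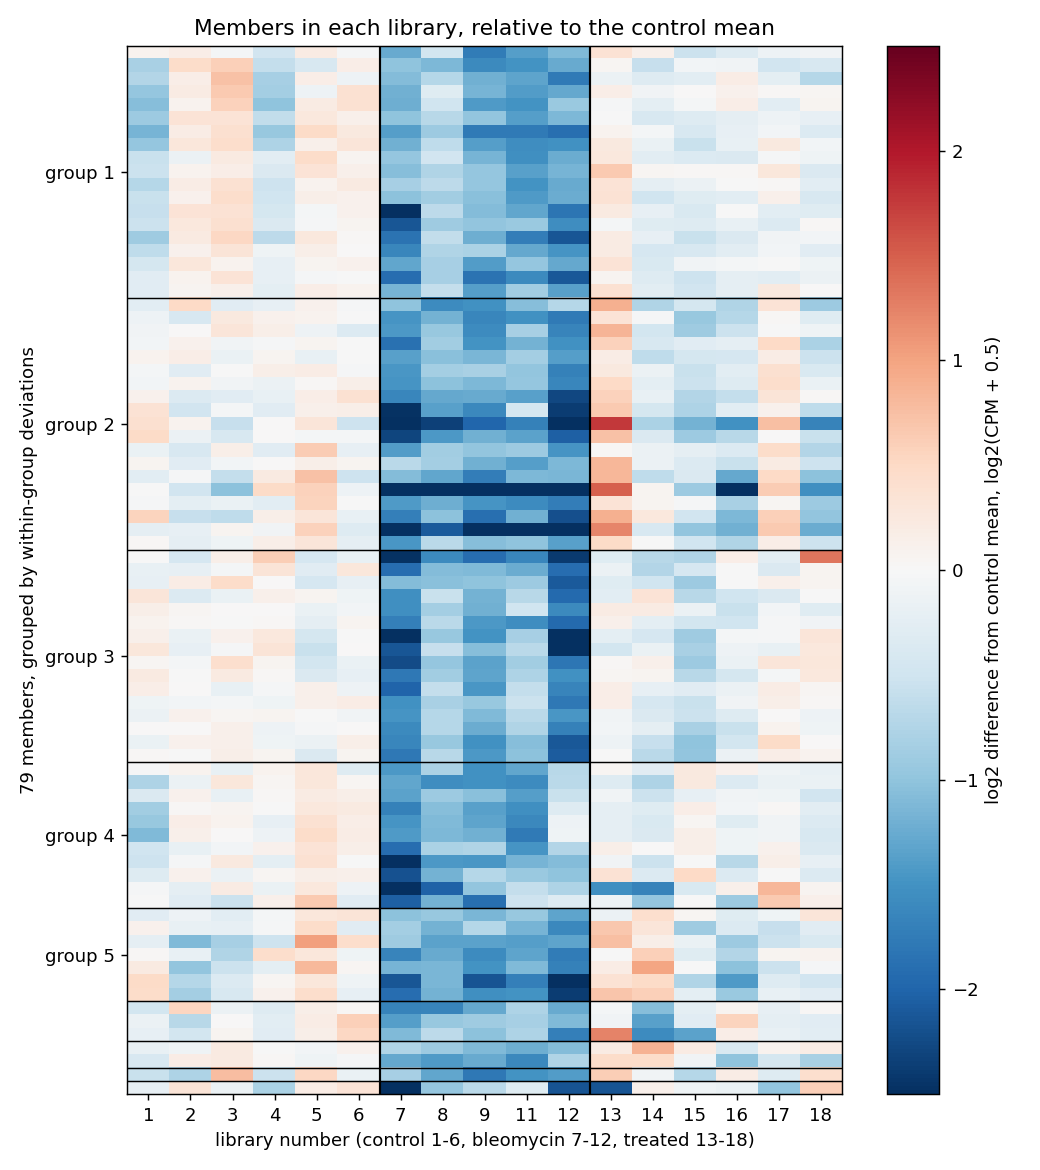
Rows are the 79 genes and columns the 17 libraries, and colour gives the log2 difference from the control mean of the gene on log2(CPM + 0.5), with colours ending at 2.5 in either direction. Rows are ordered by the sets of genes that deviate together, group 1 to group 5 from the top. Among these groups, the median of treated column 17 is above the control mean (red) only in group 2. That of column 13 is above it in groups 1, 2 and 5.

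The list itself changed with the libraries that entered the means. Leaving out 1 library at a time gave between 66 and 108 genes. Without treated library 13, 27 of the 79 no longer met the rule, and without control library 5, 26 did not. Without bleomycin library 8 only 3 were lost. There were 15 genes that met the rule whichever library was left out. Their log2 bleomycin to control ratios ran from -1.64 to -1.10 and their treated to control ratios from -0.18 to 0.05, with control means from 6.30 to 665 CPM (median 144 CPM). Of these 15 genes, 11 had both every bleomycin library below every control and every treated library above every bleomycin library. Both held for 40 of the 79 and for 3.48% of all genes tested. The 15 were kept by repeats of the same rule, so nothing is read from this count.

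Leaving out treated libraries 13 and 17 together left 38 of the 79 genes inside the rule, and 39 fell below the window. The median log2 treated to control ratio of the 79 went from -0.12 to -0.24. In the fit without those 2 libraries, 65 of the 79 were called higher against bleomycin, where 75 had been with all 6 treated libraries. Over all 15083 genes tested in that fit, 770 were called higher. Against control, 2 of the 79 were called lower, where none had been, and 385 of all 15083 genes were. The rule used these comparisons, so nothing is read from the counts.

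**Figure D5:**
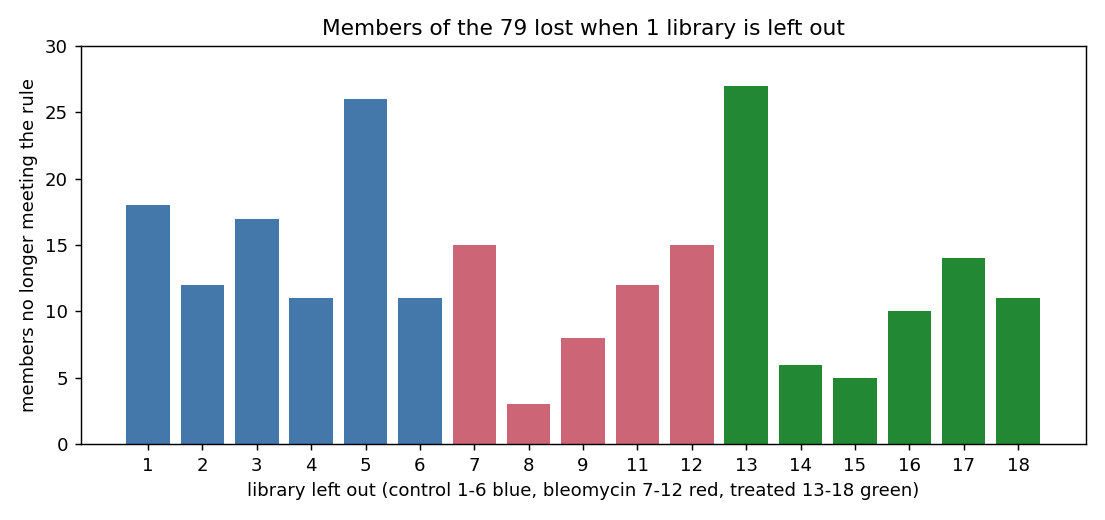
Bars give, for each library left out on the x axis, how many of the 79 genes no longer met the rule (y axis, from 0), with control bars blue, bleomycin bars red and treated bars green. The tallest bars are treated library 13 with 27 genes and control library 5 with 26.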

How the data were processed

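The authors deposited 1 table of raw read counts per gene for the 17 libraries, with genes named by Ensembl rat ID. Extraction used a Qiagen column kit and library preparation a TruSeq mRNA kit, per the labels' protocols. Per the submitters' processing notes, tools included STAR 2.5.2 and 2.5.2b, featureCounts 1.5.1 and RSEM 1.3.0, and the builds listed were Rnor_6.0, hg38 and GRCh38, with no roles. Which of these tools made the counts, the annotation release and the strand setting were not given in the sources used here, so reads of overlapping or near-identical genes may be shared or lost.

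Members were chosen on CPM from library totals, with numpy 2.4.6 and pandas 2.3.3 in Python. Clustering used scipy 1.17.1. The whole table was fitted in edgeR 4.0.16 (R 4.3.3) with its expression filter, TMM scaling, the 3 groups in 1 quasi-likelihood model and Benjamini-Hochberg adjustment over 15000 genes. The SE is the log2 fold change divided by the square root of F. The fit was tested on simulated counts. Alternatives were upper quartile scaling, no filter, DESeq2 1.42.0, limma 3.58.1 (voom with quality weights), fits of 2 groups and libraries left out.

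The members, lists and settings were chosen with earlier results of these data known. The rule for named genes took the gene with the lowest ratio and the one with the highest control mean, and 2 more genes were added. The rat gene table used (assembly GRCr8) lists no Ensembl IDs, so the cell type and pathway lists were not run.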

Additional observations from a re-analysis of the deposited data

Results flagged for a closer look

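In 45 groups of library values, 5 held 1 library outlying by Dixon's test at 95%, where chance gives about 1 in 20. Many of these groups share genes and libraries, so no excess over that rate is read from the count. The genes raised with bleomycin had a median log2 difference from control of 0.959 in treated library 15, against 0.345 to 0.572 in the other treated libraries. The first set of covarying genes had a median of -0.684 in bleomycin library 8, against -1.39 to -1.20 in the others. The third set had -0.252 in control library 5, against -0.044 to 0.081 in the other controls, and the fourth had -0.497 in control library 1, against 0.010 to 0.287. ENSRNOG00000003510 reached 947 CPM in control library 5, with the other controls between 512 and 670 CPM.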

How the results depend on the processing

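The list of 79 genes depended on its thresholds and libraries. A window of 0.5 gave 187 genes and a bleomycin threshold of -0.8 gave 178. Library sizes scaled by TMM gave 65 genes (63 shared with the 79), group medians gave 95 (43 shared) and leaving out 1 library gave 66 to 108. Over all genes, the 5738 called with bleomycin ranged from 4894 to 6359 with 1 library left out. The 4163 called in treated against bleomycin ranged from 3126 to 4611, and were 1929 without treated libraries 13 and 17. The 1259 called in treated against control ranged from 794 (without control library 2) to 1573, and were 2546 with limma voom. The treated to control differences of the named genes were not called, and 3 of them lay near 0 and changed sign. That of ENSRNOG00000032871 went from 0.13 to -1.01 without libraries 13 and 17, -0.49 without library 13 alone and -0.54 with limma voom. That of ENSRNOG00000003510 went from 0.02 to -0.91, -0.44 and -0.37, and that of ENSRNOG00000011154 lay between -0.23 and 0.07. No difference of these 4 genes from control to bleomycin, or from bleomycin to treated, changed sign under the 23 alternatives run. The rule fixed the direction of both differences for these genes, so nothing is read from this. Without libraries 13 and 17 the median correlation between the 79 genes was 0.182, an alternative chosen after seeing the data. Depth limits the values of ENSRNOG00000032871 with bleomycin. Of the 79 genes, 16 had under 50 counts in at least 1 bleomycin library. No paired analysis was possible because no library number occurs in more than 1 group.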
